A study of Mus musculus with 20 samples.

Results

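Amphetamine was compared with saline in the striatum of 20 male mice, which are all 20 libraries of the series. The treatment groups were taken from the labels: 10 mice received d-amphetamine at 0.25 mg/kg by intraperitoneal injection and 10 received saline, and tissue was collected 2 hours later. Each treatment group held 5 mice of the Control line and 5 of the High-Active line, both of generation 17 and about 6.5 months old. The High-Active line was bred for high home cage activity and the Control line came from the same outcrossed founders. There was 1 line of each kind and 1 dose, and only males were sequenced. By the parents named in the labels, 6 families gave mice to both treatments, 13 mice in all. The tissue was the whole striatum, dorsal and ventral, cut free from cortex, septum and olfactory tubercle.

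Amphetamine enters dopamine terminals through the dopamine transporter, empties the synaptic vesicles and reverses the transporter, so that dopamine floods the striatum. Dopamine acts on medium spiny neurons of the direct pathway through Drd1, which raises cyclic AMP, and on those of the indirect pathway through Drd2, which lowers it. Cyclic AMP and calcium signals activate the transcription factor CREB and switch on immediate early genes within minutes, followed by slower genes of growth factors, neuropeptides and phosphatases. The comparison asks which genes differed between the treatments over both lines, and whether they did so in the same direction in each.

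The libraries held 32388971 to 53710713 counts on genes, and the medians of the saline and amphetamine mice were 42421931 and 41493785.5. These medians hide a difference between the lines. Control libraries held 36243346 to 46454129 counts after saline and 32425488 to 42339232 after amphetamine. High-Active libraries held 34392988 to 44402107 after saline and 49019871 to 53710713 after amphetamine, except mouse 415 at 32388971. The markers of medium spiny neurons were abundant in every library. Ppp1r1b, which encodes DARPP-32, was at 881 to 1520 CPM (counts scaled to library size) after saline and 1050 to 1680 after amphetamine, and Drd1 was at 170 to 287 and 173 to 270 CPM. Markers of cortical excitatory neurons were also present in every library and differed between the treatments, as described with the results they touch.

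No gene passed the threshold for the shared amphetamine effect. In edgeR's quasi-likelihood test with line as a covariate, 0 of 14792 genes (0%) had an adjusted p under 0.1, and the smallest adjusted p was 0.116. Unadjusted p values under 0.05 were found for 1039 genes with higher levels after amphetamine (7.02% of the genes tested) and 801 with lower levels (5.42%). The other tools differed widely at the same threshold of 0.1. DESeq2 called 399 genes, 300 higher and 99 lower, and gave no adjusted p for 1723, and a likelihood-ratio test with robust dispersions called 434. limma-voom with a correlation for family called 4 genes, Hnrnph3, Pgm2l1, Gabra5 and Kif5a, each with an adjusted p of 0.0826. The count in the quasi-likelihood test also depended on single libraries. It was 246 without High-Active amphetamine mouse 415, the library with the lowest depth, 190 without Control saline mouse 411, 34 without Control saline mouse 883, 26 without High-Active saline mouse 197 and 15 without Control amphetamine mouse 457. The genes below are therefore described by their rank and their values, as genes that led the ranking and not as genes that changed.

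The higher genes with the smallest p were led by Pgm2l1, which makes the sugar phosphate glucose bisphosphate in brain. Pgm2l1 had 130, 139 and 173 CPM after saline (lowest, median and highest of 10 mice) and 139, 183 and 219 CPM after amphetamine. The 6 highest libraries were all from amphetamine mice, and the lowest amphetamine value came from mouse 415. The difference was 0.35 on the log2 scale (SE 0.062, unadjusted p = 1.71e-05, adjusted p = 0.116 in edgeR's quasi-likelihood test), with 0.33 in Control and 0.36 in High-Active mice. Gabra5, a subunit of the GABA-A receptor, had 30.9, 37.2 and 40.0 CPM after saline and 40.2, 42.9 and 50.3 CPM after amphetamine. All 10 amphetamine mice lay above all 10 saline mice, which held for 1 of 14792 genes (0.00676%). Its difference was 0.24 (SE 0.044), with 0.22 in Control and 0.25 in High-Active mice.

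Kif5a, the heavy chain of a kinesin that carries cargo along axons, had 1960, 2140 and 2520 CPM after saline and 2440, 2650 and 2980 CPM after amphetamine. In 9 of the 10 amphetamine mice it was above every saline mouse. Pde1a, a calmodulin-activated phosphodiesterase that breaks down cyclic nucleotides, had 74.7, 92.4 and 122 CPM after saline and 96.8, 122 and 149 CPM after amphetamine. The difference of Pde1a was 0.42 (SE 0.085), the largest of the 15 higher genes, and 5 amphetamine mice were above every saline mouse. Sh3gl2, which encodes endophilin of synaptic vesicle endocytosis, had 107, 116 and 153 CPM after saline and 121, 144 and 180 CPM after amphetamine. Only 2 amphetamine mice were above the highest saline mouse, Control mouse 411.

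The other 10 higher genes had log2 differences of 0.14 to 0.42. Adcy9, an adenylyl cyclase that makes cyclic AMP, differed by 0.34 (SE 0.075), and Prkce, a protein kinase C, by 0.21 (SE 0.047). Pik3r1, the regulatory subunit of phosphoinositide 3-kinase, differed by 0.14 (SE 0.031), with 8 of 10 amphetamine mice above every saline mouse. Rph3a, which encodes rabphilin of synaptic vesicles, differed by 0.23 (SE 0.051). Gpr22, an orphan receptor, differed by 0.42, and Gpd2, the mitochondrial glycerol phosphate dehydrogenase, by 0.27. Hivep1, a zinc finger transcription factor, differed by 0.34, Megf9 by 0.21, the calcium-binding protein gene Necab1 by 0.17 and Il1rap, the accessory chain of interleukin receptors, by 0.18. DESeq2 gave all 15 an adjusted p under 0.1, among 300 higher genes that it called. The 15 were chosen by p from the same counts, so this is not separate support.

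**Figure D1:**
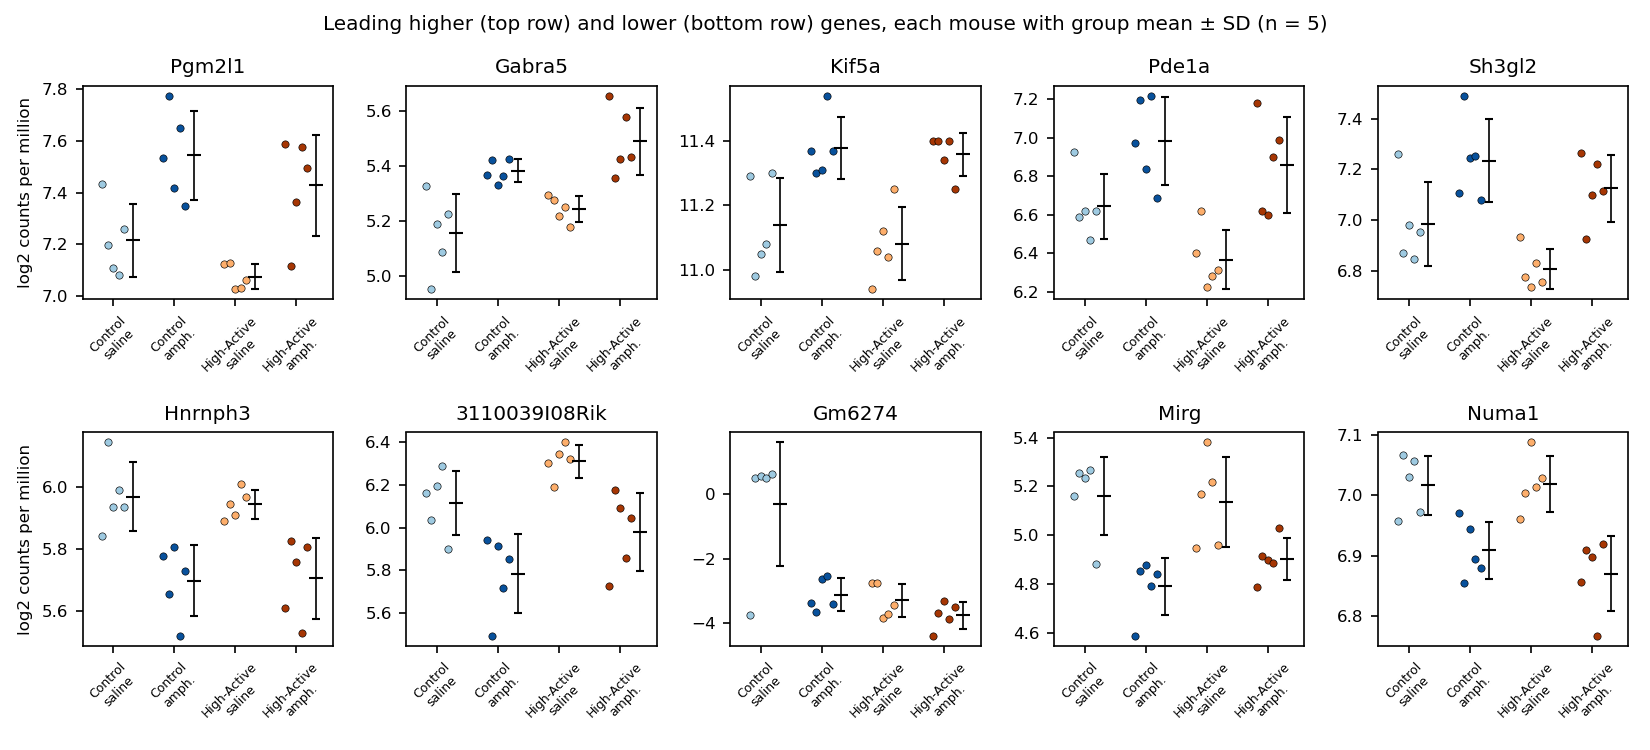
Log2 CPM of the 5 higher genes (top) and 5 lower genes (bottom) with the smallest p, with 1 point per mouse in each of the 4 groups and the group mean ± SD beside them (n = 5). The amphetamine mice of both lines sit above all saline mice for Gabra5 and below all of them for Hnrnph3, and 4 Control saline mice stand apart for Gm6274.

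Hnrnph3, an RNA-binding protein of splicing complexes, led the lower genes. It had 57.2, 61.3 and 70.6 CPM after saline and 45.8, 53.5 and 56.6 CPM after amphetamine. All 10 amphetamine mice lay below all 10 saline mice, which again held for 1 of 14792 genes (0.00676%). The difference was -0.25 (SE 0.045, unadjusted p = 1.83e-05, adjusted p = 0.116 in edgeR's quasi-likelihood test), with -0.27 in Control and -0.24 in High-Active mice.

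The transcript 3110039I08Rik, annotated as a processed transcript on chromosome 9, had 59.6, 75.6 and 84.5 CPM after saline and 44.9, 59.1 and 72.3 CPM after amphetamine. Its difference was -0.33 (SE 0.063), with -0.33 in Control and -0.32 in High-Active mice. Numa1, a nuclear matrix and spindle protein gene, had 124, 130 and 136 CPM after saline and 109, 119 and 125 CPM after amphetamine. In 9 of 10 amphetamine mice Numa1 was below every saline mouse, although the difference was only -0.13 (SE 0.026).

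Meg3 and Mirg, both long noncoding RNAs expressed from the maternal copy of an imprinted cluster, were among the 15 lower genes. Meg3 lies on chromosome 12 of GRCm38 from 109541001 to 109571726 and Mirg from 109729764 to 109749460, on the same strand. Mirg had 29.5, 36.5 and 41.6 CPM after saline and 24.0, 29.1 and 32.6 CPM after amphetamine, with 6 amphetamine mice below every saline mouse. Meg3 had 3120, 3890 and 4480 CPM after saline and 2590, 3030 and 3650 CPM after amphetamine, also with 6 mice below every saline mouse. Their differences were -0.31 (SE 0.062) for Mirg and -0.30 (SE 0.063) for Meg3.

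Several other lower genes encode proteins that bind RNA or chromatin. Pabpn1, the nuclear poly(A)-binding protein, differed by -0.18 (SE 0.039), the splicing regulator gene Srek1 by -0.18 (SE 0.039) and the RNA-binding protein gene Taf15 by -0.18 (SE 0.041). Hmgn1, which binds nucleosomes, differed by -0.15, and Anp32b, an acidic nuclear phosphoprotein, by -0.15. Ankrd10 differed by -0.20, the kinase gene Stk38 by -0.17, the phospholipase gene Plcg1 by -0.12 and the glycosyltransferase gene Glt8d1 by -0.34. These functions were read from the leading genes after their values were known and were not tested as groups.

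Gm6274 had the largest difference of the 30 leading genes, -3.05 (SE 0.61), and rests on 4 mice. It is annotated as a processed pseudogene on the X chromosome from 36668217 to 36669013. In 4 of 5 Control saline mice it had 1.36 to 1.47 CPM, and in the fifth, mouse 411, 0.0264 CPM. The other 15 mice had 0 to 0.124 CPM. Gm6274 did not pass the filter on low counts in High-Active mice alone, DESeq2 gave it no adjusted p, and its reads may be shared with the parent gene.

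The leading genes differed in the same direction in both lines. All 15 higher genes were higher in Control and in High-Active mice fitted separately, and all 14 lower genes that could be fitted in both lines were lower in both. The unadjusted p was under 0.05 in both separate fits for 14 of the 15 higher and 11 of the 15 lower genes. These genes had been ranked on both lines together, so this describes them and does not test them. A fairer account ranks genes in 1 line and reads their sign in the other, since the lines share no mouse. Of the 200 genes with the smallest p in Control mice, 160 (80.0%) had the same sign in High-Active mice. Of the 200 genes with the smallest p in High-Active mice, 168 (84.0%) had the same sign in Control mice. Over all 14212 genes compared, 62.1% had the same sign. Across these genes the log2 differences of the lines had a Pearson r of 0.28 and a Spearman rho of 0.30, as a description, since genes are not independent.

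Some genes passed an unadjusted p of 0.05 in both lines fitted separately. They were 91 genes higher in both, 29 lower in both and 3 with opposite signs. The test of the difference between the lines, the line-by-amphetamine interaction, gave 0 genes with an adjusted p under 0.1 in edgeR's quasi-likelihood test and 440 genes (2.97%) with an unadjusted p under 0.05. DESeq2 also gave 0 and 499 genes, and the likelihood-ratio test gave 6 and 530. Among the 30 leading genes only Gm6274 had an unadjusted interaction p under 0.05.

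**Figure D2:**
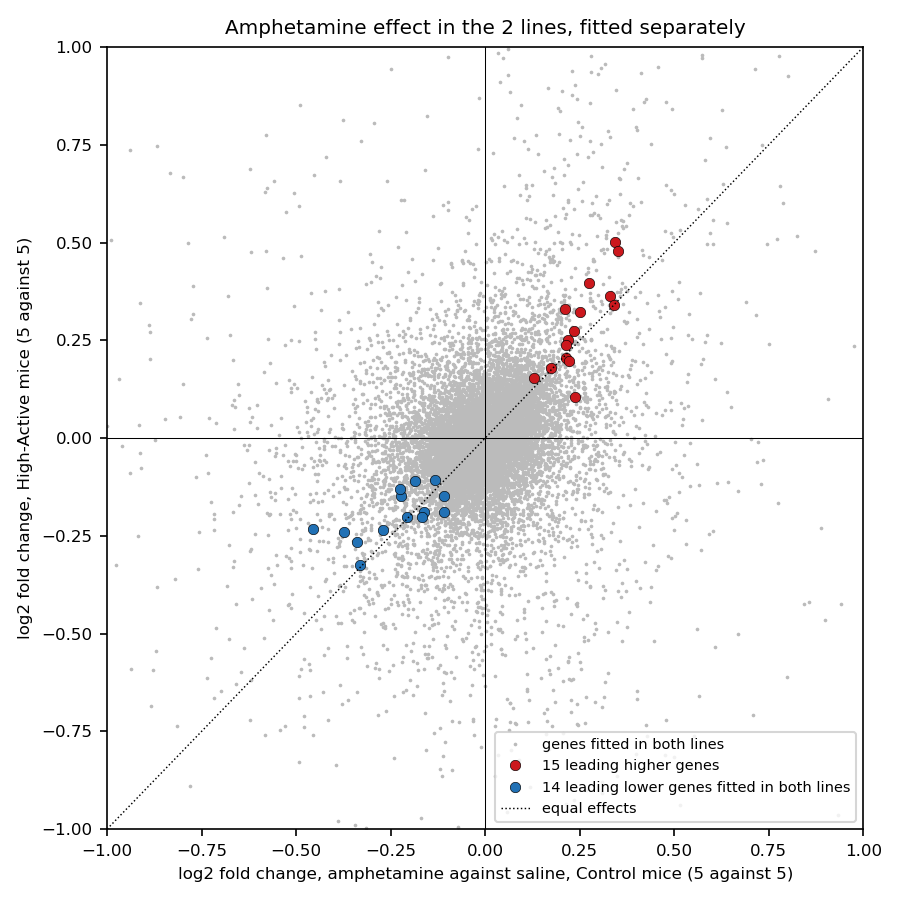
Log2 fold change of amphetamine against saline in Control mice (x axis) and High-Active mice (y axis), with a gray point for each of 14212 genes fitted in both lines, of which 153 lie outside the axes, and the leading genes in red (higher) and blue (lower). All 15 red points lie in the upper right and all 14 blue points in the lower left.

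Markers of cortical excitatory neurons also differed with the treatment, and their part in the results above was not tested. Of 15 such markers, 14 were higher after amphetamine, 10 of them with an unadjusted p under 0.05, against 7.02% of all genes. The adjusted threshold was passed by 0 of the markers. Their median difference was 0.54, with 0.40 in Control and 0.67 in High-Active mice, against a median of -0.0067 over all genes tested. Slc17a7, the vesicular glutamate transporter of cortical neurons, had 74.5, 192 and 569 CPM after saline and 120, 463 and 679 CPM after amphetamine. Neurod6 had 3.1, 8.9 and 34.6 CPM and 5.85, 27.0 and 34.7 CPM. The summed level of the markers was 1880, 2460 and 3750 CPM after saline and 2190, 3190 and 3890 CPM after amphetamine. Slc17a7 and Neurod6 made up the smaller part of this sum, which mostly reflects other markers of the list. In any mouse, 0 of the 15 markers were at 0.

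A score was made for each mouse as the mean log2 CPM of these 15 markers. It averaged 5.79 ± 0.47 in Control saline, 6.13 ± 0.15 in Control amphetamine, 5.10 ± 0.31 in High-Active saline and 5.83 ± 0.57 in High-Active amphetamine mice (SD, n = 5 each). The 2 Control saline mice with the highest scores, 411 at 6.29 and 883 at 6.23, and the amphetamine mouse with the lowest, 415 at 4.96, were also the 3 mice whose removal raised the number of calls most. In bulk tissue more cells of a type and more RNA per cell cannot be told apart.

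With the score added as a covariate, 358 genes were higher (2.42%) and 341 lower (2.31%) at an unadjusted p under 0.05, and 0 passed the adjusted threshold. All 30 leading genes kept their sign and an unadjusted p under 0.05. They had been chosen by their p in these same mice, so this describes them and does not test them. The difference became smaller for 13 of the 15 higher and 14 of the 15 lower genes, to a median of 62% and 76.3% of its size without the score. Kif5a went from 0.26 to 0.21, Pgm2l1 from 0.35 to 0.20, Hnrnph3 from -0.25 to -0.17 and Meg3 from -0.30 to -0.17. Il1rap went from 0.18 to 0.21 and Necab1 from 0.17 to 0.18. With the score in each line's own fit, the share with the same sign in the other line was 64.0% for the genes leading in Control mice, 57.5% for those leading in High-Active mice and 55.5% over all genes. The score and the treatment overlap, so the part of each in these differences cannot be told apart.

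**Figure D3:**
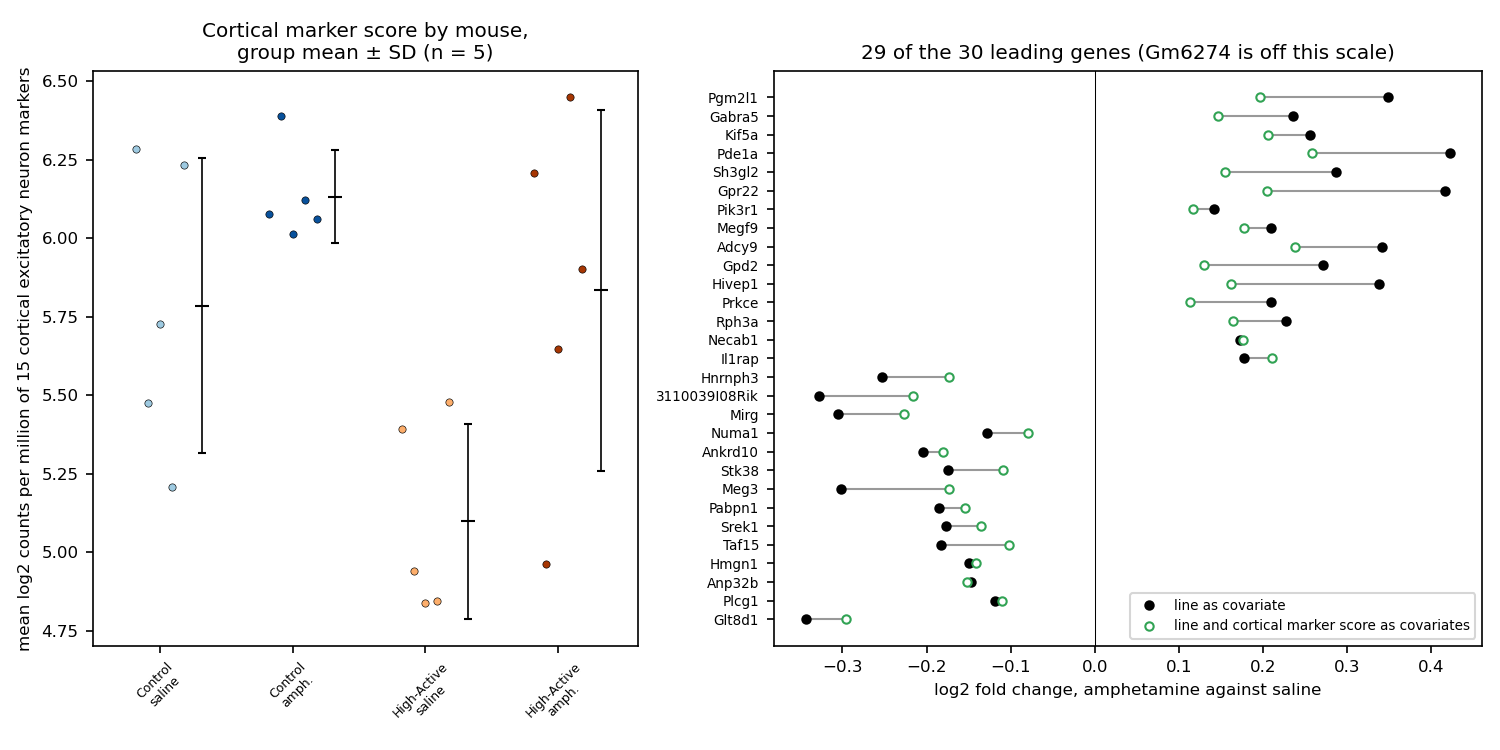
Left, the cortical marker score of each mouse (mean log2 CPM of 15 markers) with group mean ± SD (n = 5), where the amphetamine means of 6.13 and 5.83 lie above the saline means of 5.79 and 5.10 of the same lines. Right, the log2 fold change of 29 leading genes with line as covariate (filled) and with the score added (open), where most open points lie nearer to 0.

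Immediate early genes, which respond to synaptic activity and dopamine within minutes, showed no common difference 2 hours after the injection. Earlier times were not sampled, so an earlier rise could have been missed. Of 24 genes tested, 16 were higher and 8 lower after amphetamine, against 6949 higher and 7843 lower of all 14792 genes. The 2 with an unadjusted p under 0.05 were both higher, a share near the 7.02% of all genes. In the list 0 passed the adjusted threshold, and 0 had an unadjusted p under 0.05 with the cortical score. The median difference was 0.081, with 0.24 in Control and -0.11 in High-Active mice, and 10 of 24 genes had the same sign in both lines. Ier2 had 1.45, 2.02 and 2.85 CPM after saline and 1.98, 3.00 and 4.18 CPM after amphetamine, with 5 amphetamine mice above every saline mouse (difference 0.56, SE 0.16, unadjusted p = 0.00248, adjusted p = 0.207 in edgeR's quasi-likelihood test). Nr4a2, a nuclear receptor of dopamine neurons that is also induced by activity, had 8.23, 15.3 and 61.0 CPM after saline and 9.41, 43.9 and 49.5 CPM after amphetamine (difference 0.94, SE 0.31, adjusted p = 0.231). The highest and the lowest values of Nr4a2 were both in saline mice. With the cortical score as a covariate the difference of Ier2 was 0.30 and that of Nr4a2 was 0.11.

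The classical activity marker Fos had 6.8, 10.3 and 31.1 CPM after saline and 5.51, 14.8 and 26.0 CPM after amphetamine. Fos differed by 0.26 (SE 0.30), Arc, which encodes a synaptic plasticity protein, by 0.29 (SE 0.32), Egr1 by 0.007 (SE 0.18), Npas4 by -0.014 (SE 0.24) and Fosb by -0.17 (SE 0.22). For each of these 5 genes the standard error exceeded the difference itself.

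The promoters of this group are shown because CREB acts through them. The cyclic AMP response element has the full form TGACGTCA, which reads the same on both strands, and the shorter core TGACG, or CGTCA on the other strand. Promoters, the 250 bases before each RefSeq start (GRCm38.p6), were available for 20 of the 26 genes of the list. The core was present in 19 of their 27 promoters (70.4%) and in 17.8% of 32851 promoters of all genes. The full element was present in 2 of the 27 (7.41%) and in 1.55% of all promoters. Some genes, such as Egr2, have several starts with overlapping windows. Counted by gene, the core was present in 16 of the 20 (80.0%) and in 19.8% of 27025 genes. Capitals mark the core or the full element in Nr4a2 (chr2:57124004-57124253, minus strand), Fos (chr12:85473640-85473889, plus strand) and Btg2 (chr1:134079156-134079405, minus strand), each written 5′ to 3′ and ending at the base before the start.
Nr4a2: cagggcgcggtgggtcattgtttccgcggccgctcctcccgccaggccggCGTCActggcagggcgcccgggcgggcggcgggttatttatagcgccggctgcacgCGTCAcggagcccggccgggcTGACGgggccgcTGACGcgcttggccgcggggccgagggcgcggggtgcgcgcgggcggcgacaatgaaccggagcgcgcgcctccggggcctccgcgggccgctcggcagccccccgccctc
Fos: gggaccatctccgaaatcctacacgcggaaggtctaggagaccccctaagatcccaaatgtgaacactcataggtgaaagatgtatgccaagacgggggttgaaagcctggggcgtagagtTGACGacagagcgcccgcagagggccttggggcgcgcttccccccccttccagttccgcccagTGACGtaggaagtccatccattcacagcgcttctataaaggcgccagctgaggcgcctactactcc
Btg2: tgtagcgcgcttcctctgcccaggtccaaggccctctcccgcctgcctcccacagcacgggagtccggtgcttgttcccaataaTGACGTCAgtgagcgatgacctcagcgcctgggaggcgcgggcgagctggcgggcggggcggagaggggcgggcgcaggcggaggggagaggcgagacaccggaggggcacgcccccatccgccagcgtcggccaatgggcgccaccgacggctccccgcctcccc
The Nr4a2 window held 4 matches, the Fos window 2 and the Btg2 window 1. Btg2 differed by 0.23 (SE 0.18), less than Nr4a2, and none of the 3 genes passed the adjusted threshold.

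Slower activity-regulated genes were led by genes of growth and plasticity. Of 24 tested, 4 were higher and 1 lower at an unadjusted p under 0.05, against 7.02% and 5.42% of all genes. In the list 0 passed the adjusted threshold. The sign was the same in both lines for 14 of the 24, against 62.1% of all genes compared. The median of the list was 0.14 in Control and -0.0082 in High-Active mice. Nrn1, the secreted growth factor neuritin, had 13.9, 36.2 and 64.4 CPM after saline and 37.0, 50.3 and 79.2 CPM after amphetamine (difference 0.74, SE 0.23). Its difference was 0.29 in Control and 1.19 in High-Active mice, and the interaction did not pass the adjusted threshold. Bdnf, the brain-derived neurotrophic factor, had 3.01, 6.86 and 16.2 CPM after saline and 5.48, 10.8 and 20.3 CPM after amphetamine (difference 0.76, SE 0.25). Ptgs2, an inducible cyclooxygenase, differed by 0.58 (SE 0.20). With the cortical score as a covariate the differences were 0.24 for Nrn1, 0.082 for Bdnf and 0.23 for Ptgs2, and 0 of the 24 genes had an unadjusted p under 0.05. Among 14 phosphatase and Sprouty genes that dampen MAP kinase signaling, 0 had an unadjusted p under 0.05. Dusp1 differed by 0.24 (SE 0.15) and Dusp6 by 0.23 (SE 0.17).

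Striatal neuropeptides were mostly lower. The list holds 6 peptide genes and the adenosine receptor gene Adora2a, and 6 of its 7 genes were lower and 1 was higher. At an unadjusted p under 0.05, 3 were lower and 1 higher, against 5.42% and 7.02% of all genes. Tac1, the substance P precursor of direct pathway neurons, differed by -0.20 (SE 0.085), Cartpt, the CART peptide, by -0.38 (SE 0.16) and Nts, neurotensin, by -0.53 (SE 0.20). Nts had 7.41, 25.7 and 42.9 CPM after saline and 9.47, 16.4 and 24.7 CPM after amphetamine, so the saline range enclosed the amphetamine range. Cck, cholecystokinin, was the higher member, with 18.7, 34.7 and 86.1 CPM after saline and 32.5, 68.7 and 114 CPM after amphetamine (difference 0.86, SE 0.26). The median of the list was -0.053 in Control and -0.27 in High-Active mice. With the cortical score the differences of Cck and Nts were 0.14 and -0.049 and that of Cartpt was -0.40, and 0 of the 7 genes had an unadjusted p under 0.05. Penk and Pdyn, the opioid peptide precursors, differed by -0.096 (SE 0.097) and -0.20 (SE 0.11).

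Among 9 direct pathway markers, the transcription factor gene Isl1 had the smallest p, with 13.1, 17.6 and 22.5 CPM after saline and 9.96, 13.8 and 17.0 CPM after amphetamine (difference -0.37, SE 0.10, adjusted p = 0.196 in edgeR's quasi-likelihood test). Its difference was -0.11 with the cortical score. Eya1 differed by 0.24 (SE 0.098). Of 8 indirect pathway markers only Grik3, a kainate receptor subunit, had an unadjusted p under 0.05 (difference 0.16, SE 0.057). Grik3 differed by 0.27 in Control and 0.058 in High-Active mice, with 5 and 1 amphetamine mice above every saline mouse of their line. Of 16 striatal genes of cyclic AMP and calcium signaling only Camk2a did, with 1140, 1390 and 1850 CPM after saline and 1320, 1660 and 2250 CPM after amphetamine (difference 0.23, SE 0.096, and 0.021 with the cortical score). Second in rank among these signaling genes was Itpr1, the inositol trisphosphate receptor, at 0.13 (SE 0.093), and among the indirect pathway markers Adk, adenosine kinase, at 0.095 (SE 0.048).

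Of 12 genes of dopamine synthesis, transport and reception, 9 passed the filter. Of these, 2 were lower and 0 higher at an unadjusted p under 0.05, against 5.42% and 7.02% of all genes. Slc18a2, the vesicular monoamine transporter on which amphetamine acts, had 1.54, 3.81 and 6.06 CPM after saline and 0.828, 1.84 and 4.16 CPM after amphetamine. In 5 amphetamine mice it was below every saline mouse (difference -0.86, SE 0.30, adjusted p = 0.245 in edgeR's quasi-likelihood test), with -0.42 in Control and -1.29 in High-Active mice. Drd3, a dopamine receptor of the ventral striatum, had 1.13, 2.92 and 4.00 CPM after saline and 0.891, 1.90 and 3.15 CPM after amphetamine (difference -0.46, SE 0.21). Both have few counts in striatal tissue, and with the cortical score their differences were -0.40 and -0.27. The median of the 9 genes was -0.057, and 0.090 with the score. With the score 1 gene was higher and 0 were lower at an unadjusted p under 0.05. Drd1 differed by -0.057 (SE 0.095) and Drd2 by -0.041 (SE 0.089).

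Potassium channel genes had 8 of 26 members higher at an unadjusted p under 0.05 and 0 lower, against 7.02% and 5.42% of all genes. Kcnj6, a G protein-gated inward rectifier, had 3.86, 5.80 and 9.09 CPM after saline and 5.35, 9.04 and 14.2 CPM after amphetamine (difference 0.60, SE 0.15, adjusted p = 0.176 in edgeR's quasi-likelihood test), with 0.59 in Control and 0.61 in High-Active mice. Kcnma1, the large-conductance calcium-activated channel, had 43.0, 50.6 and 59.8 CPM after saline and 44.8, 63.6 and 83.3 CPM after amphetamine (difference 0.33, SE 0.082), with 7 amphetamine mice above every saline mouse. Kcnj3, the partner of Kcnj6, differed by 0.43 (SE 0.11) and Kcnk1, a leak channel, by 0.18 (SE 0.066). With the cortical score 1 of the 26 genes had an unadjusted p under 0.05, Kcnk1 at 0.26. Kcnj6 was then at 0.24 and Kcnma1 at 0.19. The median of the list was 0.066 without the score and 0.061 with it.

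The synaptic lists were set against all genes, of which 6949 of 14792 were higher and 7.02% were higher at an unadjusted p under 0.05. Of 21 synaptic vesicle genes, 18 were higher, 7 of them at an unadjusted p under 0.05. Syt1, the calcium sensor of vesicle release, had 1040, 1090 and 1380 CPM after saline and 1080, 1310 and 1460 CPM after amphetamine (difference 0.19, SE 0.049), and Rims1, an active zone scaffold, differed by 0.31 (SE 0.086). All 16 postsynaptic scaffold genes were higher, 4 of them at an unadjusted p under 0.05, among them Dlgap1 (difference 0.32, SE 0.087) and Shank1 (0.29, SE 0.092). Of 20 glutamate receptor genes 15 were higher, 5 of them at that threshold, with Grin2a, an NMDA receptor subunit, at 0.39 (SE 0.12). No member of these lists passed the adjusted threshold. The sign was the same in both lines for 16 of 21 vesicle, 14 of 16 scaffold and 11 of 20 glutamate receptor genes. Of all genes compared, 62.1% had the same sign. The medians in Control and High-Active mice were 0.041 and 0.155 for vesicle, 0.12 and 0.073 for scaffold and 0.069 and 0.045 for glutamate receptor genes. With the cortical score 0 members of the vesicle, scaffold and glutamate receptor lists had an unadjusted p under 0.05, and the medians went from 0.079, 0.10 and 0.041 to 0.031, 0.032 and 0.050.

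**Figure D4:**
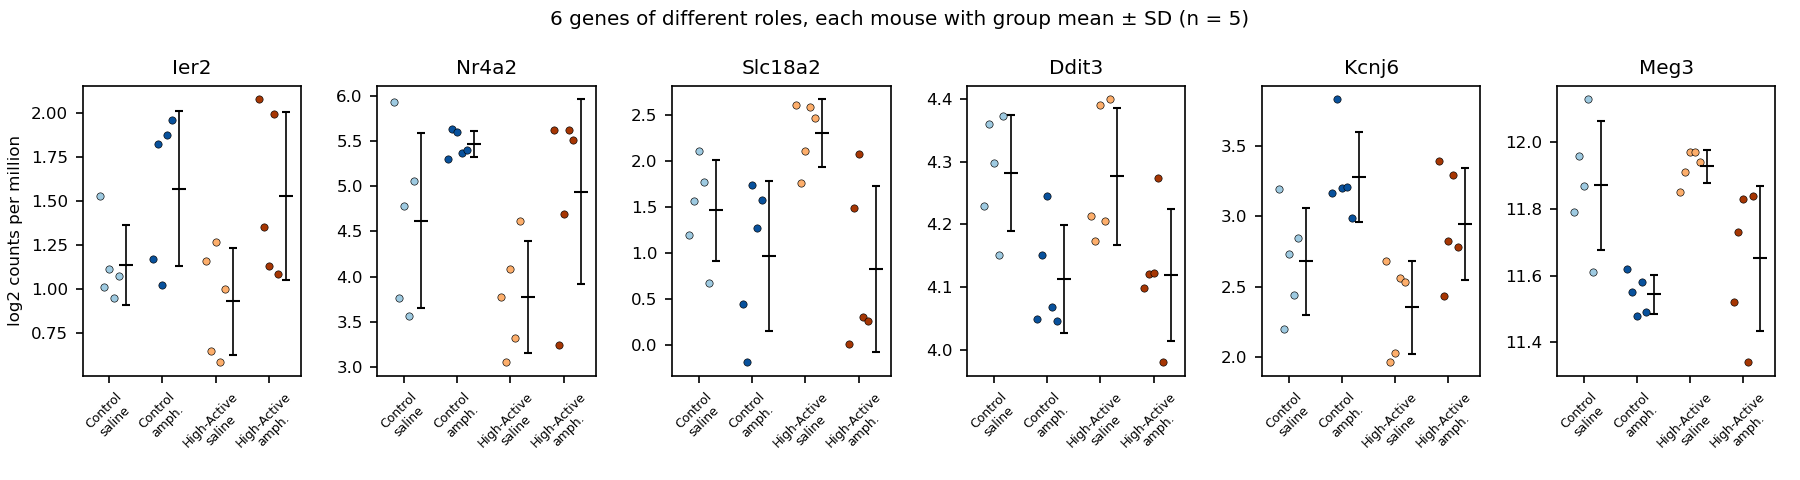
Log2 CPM of 6 genes of different roles, with 1 point per mouse in each of the 4 groups and the group mean ± SD (n = 5). The saline and amphetamine mice overlap for each of the 6 genes, while Meg3 and Nr4a2 are spread least in High-Active saline and Control amphetamine mice, respectively.

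Heat shock and chaperone genes, which fold and refold proteins, were lower in all 24 members, with a median of -0.11 and medians of -0.091 in Control and -0.13 in High-Active mice. Of all 14792 genes, 7843 were lower. In the list 2 genes had an unadjusted p under 0.05, a share near the 5.42% of all genes, and 0 passed the adjusted threshold. Ddit3, the transcription factor CHOP of the unfolded protein response, had 17.7, 19.2 and 21.1 CPM after saline and 15.7, 17.2 and 19.3 CPM after amphetamine, with 7 amphetamine mice below every saline mouse (difference -0.16, SE 0.045, adjusted p = 0.196 in edgeR's quasi-likelihood test). Hspe1, a mitochondrial chaperonin, differed by -0.15 (SE 0.051), and Hspa1a, the inducible heat shock protein, by -0.33 (SE 0.20). The median with the cortical score was -0.090, and Ddit3 was then at -0.20. Chaperones are induced together, so the 24 signs are not 24 separate observations.

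Of 46 cytosolic ribosomal protein genes, 42 were lower, 4 of them at an unadjusted p under 0.05 (5.42% of all genes), with a median of -0.082. Rps15 differed by -0.17 (SE 0.071) and Rpl14 by -0.12 (SE 0.049). Of 51 nuclear genes of the respiratory chain 29 were lower, and 3 had an unadjusted p under 0.05, all lower and a share near that of all genes. They were led by Ndufb10 (-0.084, SE 0.028) and Cox5a (-0.092, SE 0.038). The median of the 51 genes was -0.041 in Control and 0.0085 in High-Active mice, and 32 had the same sign in both lines. For the 46 ribosomal protein genes the medians were -0.097 and -0.060, and 40 had the same sign. The percent of reads outside annotated genes had a median of 9.03 after saline and 8.66 after amphetamine. With this percent as a covariate, 13 ribosomal protein genes and 10 respiratory chain genes were lower at an unadjusted p under 0.05, with medians of -0.092 and -0.029, against 838 of all 14792 genes. The 14 mitochondrially encoded genes had a median of -0.029, and 0 had an unadjusted p under 0.05. Ribosomal protein genes have many processed copies, and reads shared with them may have been left uncounted.

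Glucocorticoid-responsive genes, which answer to stress hormones, had 2 of 20 members higher at an unadjusted p under 0.05, a share near the 7.02% of all genes. Klf9, a transcription factor, had 140, 175 and 195 CPM after saline and 161, 208 and 254 CPM after amphetamine (difference 0.22, SE 0.066), with 0.32 in Control and 0.12 in High-Active mice, and Zbtb16 differed by 0.35 (SE 0.15). Fkbp5, a widely used marker of glucocorticoid action, differed by 0.044 (SE 0.083). Of 19 clock genes only Rora had an unadjusted p under 0.05 (difference 0.26, SE 0.082), and Bhlhe40 followed at 0.13 (SE 0.071).

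**Figure D5:**
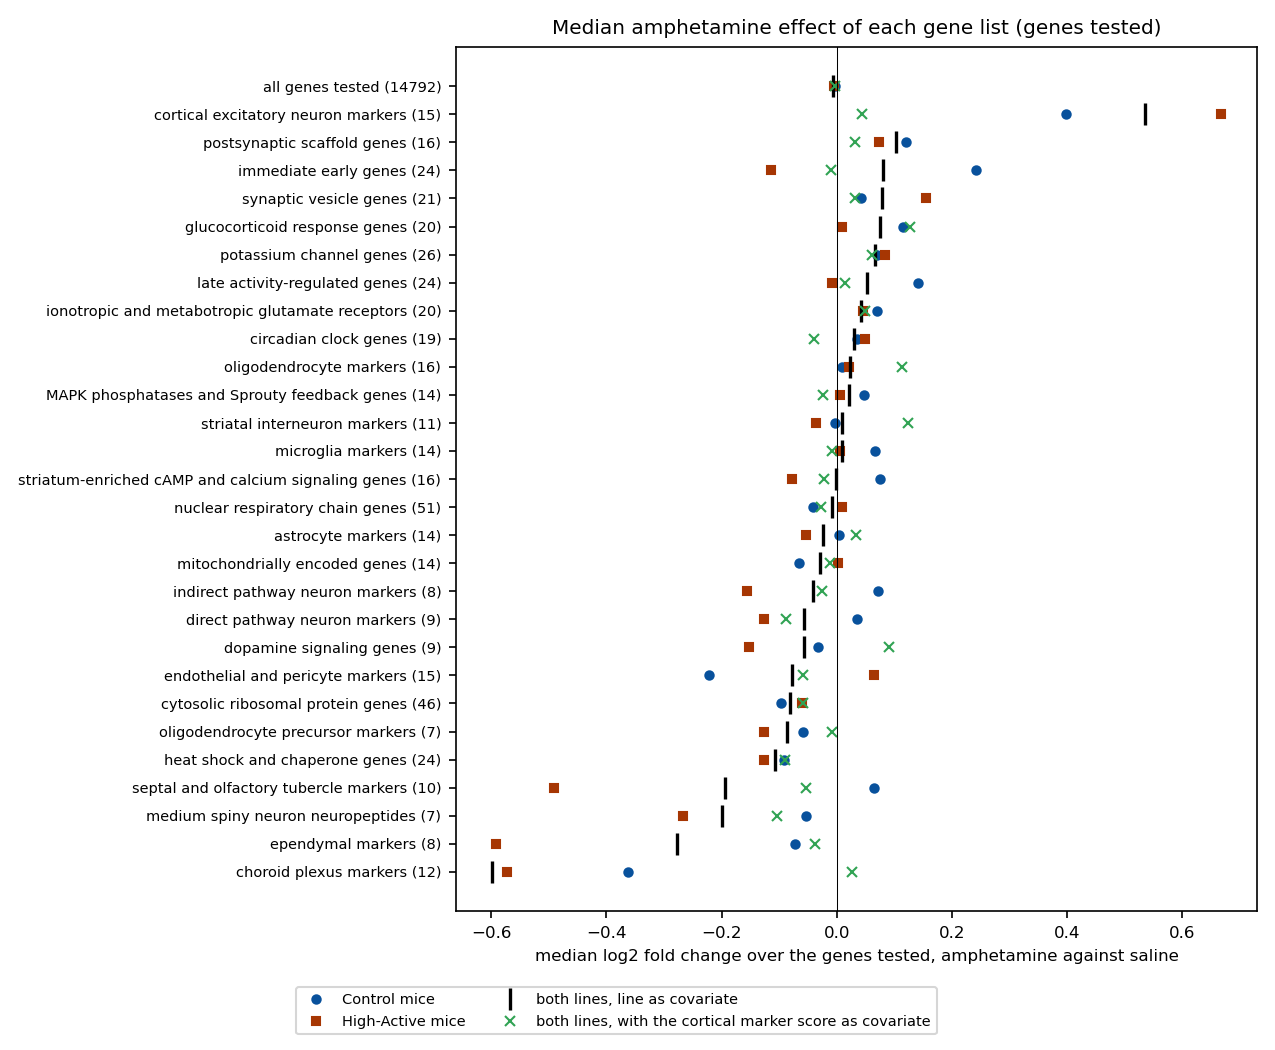
Median log2 fold change of each gene list, amphetamine against saline, in Control mice (circles), High-Active mice (squares), both lines together (bars) and both lines with the cortical marker score as a covariate (crosses), with the number of genes tested in brackets and the medians within a line taken over the genes fitted there. Blood markers are not plotted. Cortical markers lie farthest to the right at 0.54, and choroid plexus markers farthest to the left at -0.60. With the score the cortical markers come to 0.043, which was fixed in advance because the score is the mean of these same markers.

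Markers of other cells that the dissected tissue could hold were compared in the same way. Choroid plexus markers were lower in all 12 members with a median of -0.60, and ependymal markers in all 8 with a median of -0.28, but 0 of these 20 had an unadjusted p under 0.05. With the cortical score the medians were 0.026 and -0.038. The summed choroid plexus level was 160, 362 and 1380 CPM after saline and 181, 252 and 1440 CPM after amphetamine. Its highest values were far above the median in both treatments, and 2 of the 12 markers were at 0 in some mouse. Septal and olfactory tubercle markers had a median of -0.19, with 0.065 in Control and -0.49 in High-Active mice. Of these 10 markers 2 were lower at an unadjusted p under 0.05, against 5.42% of all genes. Nts counts among these 2 as well as among the neuropeptides. Their part in the neuropeptide and dopamine results was not tested.

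Oligodendrocyte (16), microglia (14), oligodendrocyte precursor (7) and blood (6) markers had 0 members with an unadjusted p under 0.05, and the median of the blood markers was -0.62. Of 14 astrocyte markers, Slc1a2, the main glutamate transporter, was higher (0.16, SE 0.045) and the gap junction gene Gja1 lower (-0.13, SE 0.054). Of 11 interneuron markers Htr3a (0.35, SE 0.12) and Vip (0.78, SE 0.28) were higher. These genes were named for an unadjusted p under 0.05, which 7.02% of all genes met as higher and 5.42% as lower. Of 15 endothelial and pericyte markers 0 had an unadjusted p under 0.05 for the shared effect. An unadjusted interaction p under 0.05 was found for 4 of them, against 2.97% of all genes. Their medians were -0.22 in Control and 0.065 in High-Active mice over the 15 markers.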

How the data were processed

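Striatal RNA of 20 mice was sequenced by the authors as stranded paired-end libraries. Per the submitters' processing notes, reads were made with CASAVA 1.8.2, aligned to GRCm38 with TopHat2 2.0.10 (Bowtie2 2.1.0, SAMtools 0.1.19) and counted on Ensembl genes with HTSeq 0.6.1. The deposited values are raw read counts per gene, without normalization. Whether the counting used the strand is not given in the sources used here, so overlapping and antisense genes may share reads. Between 15.97% and 17.49% of the reads were assigned to no gene and were left out. Each table lists 39179 genes, of which 26116 had a count in any mouse.

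Genes with over 1 CPM in at least 3 mice (14792) were normalized by TMM and tested with edgeR 4.0.16 (R 4.3.3) by the quasi-likelihood test with line and treatment as terms, with Benjamini-Hochberg adjustment over all genes and a threshold of 0.1. CPM values use TMM library sizes, and log2 CPM a prior count of 2. Separate fits within each line, the interaction, DESeq2 1.42.0, a likelihood-ratio test with robust dispersions, limma 3.58.1 (voom, correlation for family), RLE normalization, other filters, marker scores as covariates, family as a block and fits without each mouse were run as alternatives. At the median depth the typical SE of an effect was 0.0679 on the log2 scale (median over genes), and the spread between mice was a common biological coefficient of variation of 0.182. In simulated data of 14658 genes with this design, the test recovered 76% of 100 genes changed by 0.5 on the log2 scale. It recovered 97% of 100 genes changed by 1, and 10.8% of its 194 calls were unchanged genes. The simulated counts were independent between genes and mice and held no line or family differences. Both sizes exceeded the difference of every leading gene but Gm6274, so recovery of differences as small as theirs was not measured.

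The members are all libraries of the 2 treatments. The gene lists and the comparison were chosen with earlier results of these data known. Genes named are the 15 higher and 15 lower with the smallest p and the 2 with the smallest p in each list of response or tissue genes. Other members of the lists named beside them, and genes outside this rule, were named after their values were seen. Of 507 list entries, 503 matched a gene. Symbols and positions are those of GENCODE on GRCm38, and promoter sequences are from RefSeq. Mice with the same sire and dam are full siblings, not always of the same litter, and are not independent, and nothing pairs mice across groups by number. No paired analysis by replicate number was possible because the labels number mice only by animal.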

Additional observations from a re-analysis of the deposited data

Results flagged for a closer look

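In 120 groups of 5 mice (27 genes and other measures given per mouse), 9 groups held a mouse far from the other 4, with a gap to the nearest mouse of more than 0.71 of the range of the group. Chance flags about 1 in 20 groups. Values of genes are log2 CPM. Control saline mouse 411 was low for Gm6274 at -3.75, against 0.496 for the nearest mouse, and high for Ier2 at 1.53 and for Syt1 at 10.4. Control saline mouse 883 was low for Mirg at 4.88, near the amphetamine mice of its line. High-Active saline mouse 499 was high for Dusp1 at 5.12. Control amphetamine mouse 407 was high for Camk2a at 11.0 and for Kcnj6 at 3.83. Control amphetamine mouse 369 was low for Ndufb10 at 6.36. High-Active amphetamine mouse 415 had the fewest counts on genes, about 32390000, against 49020000 for the nearest mouse of its group. Mice 411 and 407 had the highest cortical marker scores of their groups, 6.29 and 6.39. Whether these libraries share a cause was not tested.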

How the results depend on the processing

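The number of genes with an adjusted p under 0.1 moved from 0 to 4 with RLE size factors and with limma-voom and a family correlation, to 1 without a filter on low counts, to 399 with DESeq2 and to 434 with the likelihood-ratio test, and it ranged from 0 to 246 (without High-Active amphetamine mouse 415) when each mouse was left out. The number with an unadjusted p under 0.05, 1840, moved to 872 with cortical and oligodendrocyte scores, 699 with the cortical score alone, 928 with family as a block in 13 full siblings, 1078 in Control and 1021 in High-Active mice alone, the latter 3 with fewer mice, and ranged from 1451 to 2294 without single mice. The interaction count moved to 6 with the likelihood-ratio test and ranged from 0 to 1 (without Control saline mouse 411). The share of genes with the same sign in the other line moved to 64% (leading in Control mice) and 57.5% (leading in High-Active mice) with the cortical score in each line. It ranged from 71.5% to 90.5% and from 70% to 91.5% without single mice. For 63 named genes under 34 alternatives, fits without each mouse included, 1906 values kept their direction and side of the threshold, 231 became called and 2 changed sign: Dusp6 to -0.019 with the cortical score and Nts to 0.038 with both scores. Gm6274 could not be fitted under 3 of them. The covariates of the cortical score alone and of the percent of reads on no gene were chosen after seeing the data. The causes were not tested.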
